A study of Mus musculus with 2 samples.

Results

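Penk, Rln3, Pcsk1, Ctsh, Sdc4, Frmd5 and Neb are 7 genes that are seldom discussed in T cells, and their transcripts are described here across CD4 T cells of 3 fat depots and the spleen. They were chosen by their symbols, because earlier results of these same data had placed them among the genes with more transcripts in regulatory T cells (Treg cells). Each symbol stood for 1 row of the 55487 genes measured. The cells were sorted as TCRb+CD3+CD4+. Their sources were brown (BAT), subcutaneous (SAT) and visceral (VAT) adipose depots and the spleen of male wild-type C57BL/6J mice aged 8 weeks. No group carried a treatment or an engineered allele. Each tissue had 4 samples, told apart by hashtag antibodies (DNA-tagged antibodies that mark the sample a cell came from), and 8 of these hashed samples were pooled in each of 2 droplet libraries, 1 per experiment. Replicates 1 and 2 of a tissue belong to experiment 1 and replicates 3 and 4 to experiment 2. The labels do not say which samples came from separate animals, so p-values measure the spread between these samples only, which may be technical. Fat was digested with collagenase II and spleen was dissociated by mechanical means alone, so tissue and digestion cannot be told apart in a comparison of fat with spleen.

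The 7 genes have known roles in peptide signalling, in the lysosome, at the cell surface and in the cytoskeleton. Penk encodes the precursor of the enkephalins, the opioid peptides, and Rln3 encodes relaxin-3, a peptide of the insulin and relaxin family. Both are made as prohormones. Pcsk1 encodes prohormone convertase 1/3, a protease of the secretory pathway that cuts such precursors. Ctsh encodes cathepsin H, an aminopeptidase of the lysosome. Sdc4 encodes syndecan-4, a heparan sulfate proteoglycan of the cell surface, Frmd5 encodes a protein with a FERM domain, a fold that links membrane proteins to actin, and Neb encodes nebulin, the giant protein of the thin filament of skeletal muscle. Treg cells are defined by the transcription factor Foxp3 and restrain immune responses. In visceral fat many of them carry Il1rl1, which encodes ST2, the receptor for interleukin-33, and some Treg cells carry Cxcr3, a chemokine receptor linked to type 1 inflammation.

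Cells were split by transcripts and not by protein. A T cell was called Foxp3-positive with at least 1 Foxp3 UMI (a unique molecular identifier, counted once for each captured transcript) and Foxp3-zero with none. The 4485 barcodes of library 1 summed to 29153747 gene UMIs and the 12239 of library 2 to 43879975. After filtering, 350 and 498 Foxp3-positive T cells and 3385 and 7795 Foxp3-zero T cells remained, with median depths of 6259 and 4470 UMIs for the first class and 6094 and 4452 for the second. Clusters outside the T cells numbered 250 and 711 cells, namely a B-like cluster (29 and 22 cells), a myeloid-like cluster (55 and 44), an unnamed cluster led by Fabp4, Sparc, Cd36 and Cdh5 (139 and 35) and a cluster led by hemoglobin genes (27 and 610). The hashtags of SAT replicate 1 and BAT replicate 4 separated poorly from background, by 1.73 and 2.48 robust standard deviations against at least 3.89 for the others. The libraries shared 20 barcodes.

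All 7 genes are protein coding in the annotation of mm10, the build used for the files (GENCODE vM21). Penk lies at chr4:4133531-4138819 on the minus strand, Rln3 at chr8:84042929-84045000 on the minus strand and Pcsk1 at chr13:75089826-75134861 on the plus strand. Ctsh lies at chr9:90054152-90076089 on the plus strand. Sdc4 at chr2:164424247-164443887, Frmd5 at chr2:121545529-121807087 and Neb at chr2:52136647-52378474 share a chromosome and the minus strand. Il27ra, a cytokine receptor gene, starts 340 bases beyond the end of Rln3 on the same strand (chr8:84030294-84042589). Il27ra stood at 115 and 122 CPM (counts scaled to a fixed total of gene UMIs, over the cells summed) in Foxp3-positive cells and at 120 and 109 in Foxp3-zero cells of libraries 1 and 2. Rln3 stood at 31.3 and 26.5 CPM against 1.71 and 1.57 in the same cells, so its values did not follow those of its neighbour. Neb overlaps the antisense gene Gm13522 and Penk overlaps A830012C17Rik on the opposite strand. Gm13522 had 20 and 16 UMIs in T cells, of which 19 and 11 lay in Foxp3-positive cells, and A830012C17Rik had 1 and 0. Whether counting used the strand is not given in the sources used here, so these overlapping genes are uncertain to that extent.

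Since several of the 7 genes moved together in the results below, their promoters were searched for 7 short motifs on both strands, from 250 bases before the start to 50 bases after it. RefSeq sequences of the GRCm38.p6 assembly were held for 4 of the 7 genes (Rln3, Pcsk1, Frmd5 and Sdc4), and those of Rln3 and Pcsk1 are shown because they alone contained a match. Of 32851 promoters of this length, 7.81% held the AP-1 letters TGANTCA, 1.63% those of NF-kB, and neither was found in the 4 promoters. The CRE letters TGACGTCA were held by 1.79% of promoters and the forkhead letters GTAAACA by 3.65%. The GATA letters AGATAA were held by 11.2%, the Runx letters TGTGGTT by 5.27% and the Ets letters GGAAGT by 23.8%. No match printed here overlaps another. Capitals mark the matches. In Rln3 (chr8:84044930-84045229, minus strand) they are the GATA letters, once on the gene's strand at -80 and once as TTATCT on the other strand at -140. In Pcsk1 (chr13:75089607-75089906, plus strand) they are the CRE letters at -78 and the forkhead letters at -44. A match is a description of the letters and not of a factor bound there.
Rln3: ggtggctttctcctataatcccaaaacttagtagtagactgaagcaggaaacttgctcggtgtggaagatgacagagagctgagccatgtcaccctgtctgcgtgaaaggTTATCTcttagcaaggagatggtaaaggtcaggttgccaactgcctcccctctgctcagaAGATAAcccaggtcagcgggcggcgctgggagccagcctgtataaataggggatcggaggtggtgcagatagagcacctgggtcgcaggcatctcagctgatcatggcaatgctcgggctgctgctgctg
Pcsk1: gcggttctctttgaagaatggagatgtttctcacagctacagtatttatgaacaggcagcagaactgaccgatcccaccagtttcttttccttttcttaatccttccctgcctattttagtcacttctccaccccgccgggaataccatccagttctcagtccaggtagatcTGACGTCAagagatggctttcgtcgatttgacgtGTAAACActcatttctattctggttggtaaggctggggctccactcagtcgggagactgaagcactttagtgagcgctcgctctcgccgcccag

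The contrast of Foxp3-positive with Foxp3-zero T cells selected the genes, so it is given without a test. Penk was detected in 2.57% and 1.20% of Foxp3-positive cells of libraries 1 and 2 against 0.266% and 0.244% of Foxp3-zero cells. Rln3 was detected in 14.0% and 9.44% against 0.709% and 0.629%, and Pcsk1 in 6.86% and 1.00% against 0.650% and 0.372%. Pcsk1 and Penk therefore differed least between the classes in library 2. Ctsh was detected in 12.3% and 3.61% of Foxp3-positive cells against 0.620% and 0.205% of Foxp3-zero cells. Sdc4 was detected in 21.1% and 13.7% against 0.886% and 0.975%. For Frmd5 the shares were 15.7% and 6.63% against 0.384% and 0.167%, and for Neb 24.9% and 16.3% against 1.51% and 1.04%. In every one of these 14 pairs the Foxp3-positive share was the higher. When each cell was thinned to 1300 UMIs the order stayed, at 6.57% and 2.51% against 0.0296% and 0.0832% for Frmd5 and at 8.29% and 6.07% against 0.444% and 0.416% for Neb. On the log2(CPM + 1) scale the Foxp3-positive level exceeded the Foxp3-zero level by 4.46 ± 0.35 for Frmd5 (mean ± SD, n = 2 libraries), 3.89 ± 0.28 for Neb, 3.64 ± 0.50 for Sdc4, 3.50 ± 0.11 for Rln3, 3.44 ± 1.23 for Ctsh, 2.86 ± 2.42 for Penk and 2.37 ± 0.87 for Pcsk1. The libraries lay close for Rln3 and Neb and far apart for Penk and Ctsh.

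Foxp3-positive cells were 9.37% and 6.01% of T cells, and their part in the UMIs of each gene was larger. They held 86.0% and 82.7% of the T cell UMIs of Frmd5, 71.5% and 55.7% of those of Neb, 68.5% and 55.8% of those of Rln3 and 73.2% and 48.6% of those of Sdc4. The figures were 82.0% and 55.3% for Ctsh and 59.3% and 30.6% for Pcsk1. Penk stood apart, with 86.4% in library 1 and 17% in library 2. Most Penk UMIs of library 2 thus lay in cells with no Foxp3 UMI. Of the 83 UMIs there, 41 came from 1 cell that had UMIs of Il2ra, Ctla4, Ikzf2 and Tnfrsf4, 4 other Treg genes. Over both libraries, Foxp3-zero cells of a T cell cluster led by Gpm6b, Tbc1d4, Pdcd1 and Nrn1 held 87 Penk UMIs, in 15 of 562 cells (24.8 CPM). The same cell of library 2 held 41 of these. Foxp3-positive cells of the cluster led by Foxp3, Ikzf2 and Ctla4 held 131, in 15 of 641 cells (32.4 CPM), with 34 in the top cell. Both levels thus rest on few cells.

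Outside the T cells, Frmd5, Neb, Rln3 and Pcsk1 were detected in 1 to 5 cells of a library in all non-T clusters together. In the hemoglobin-led cluster of library 2, at a median depth of 1481 UMIs, 0.820% of cells had a UMI of Rln3, 0.328% of Frmd5, 2.30% of Sdc4 and 1.15% of Ctsh. Transcripts of Cd3d, Cd3e, Cd3g and Trac were found in a mean 69.5% of the cells of that cluster and 60.6% of the myeloid-like cells. The means were 35.3% for the B-like and 33.2% for the Fabp4-led cells, so no cluster was free of T cell transcripts. How much of the low Foxp3-zero shares comes from free RNA was not tested. Ctsh was not limited to Treg cells. It stood at 243 and 200 CPM in the B-like cluster, where 82.8% and 59.1% of cells had a UMI, and at 362 and 212 CPM in the myeloid-like cluster, all above the 39.2 and 7.72 CPM of Foxp3-positive T cells. Sdc4 was also detected in 31.0% and 36.4% of B-like cells, at 74.3 and 76.8 CPM, against 48.2 and 38.6 CPM in Foxp3-positive T cells. In the myeloid-like cluster Sdc4 stood at 66.1 and 29.0 CPM, above that level in library 1 and below it in library 2. Penk had 89.9 and 70.9 CPM in the cluster led by Fabp4 and Sparc, from 6 cells and 1 cell.

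**Figure D1:**
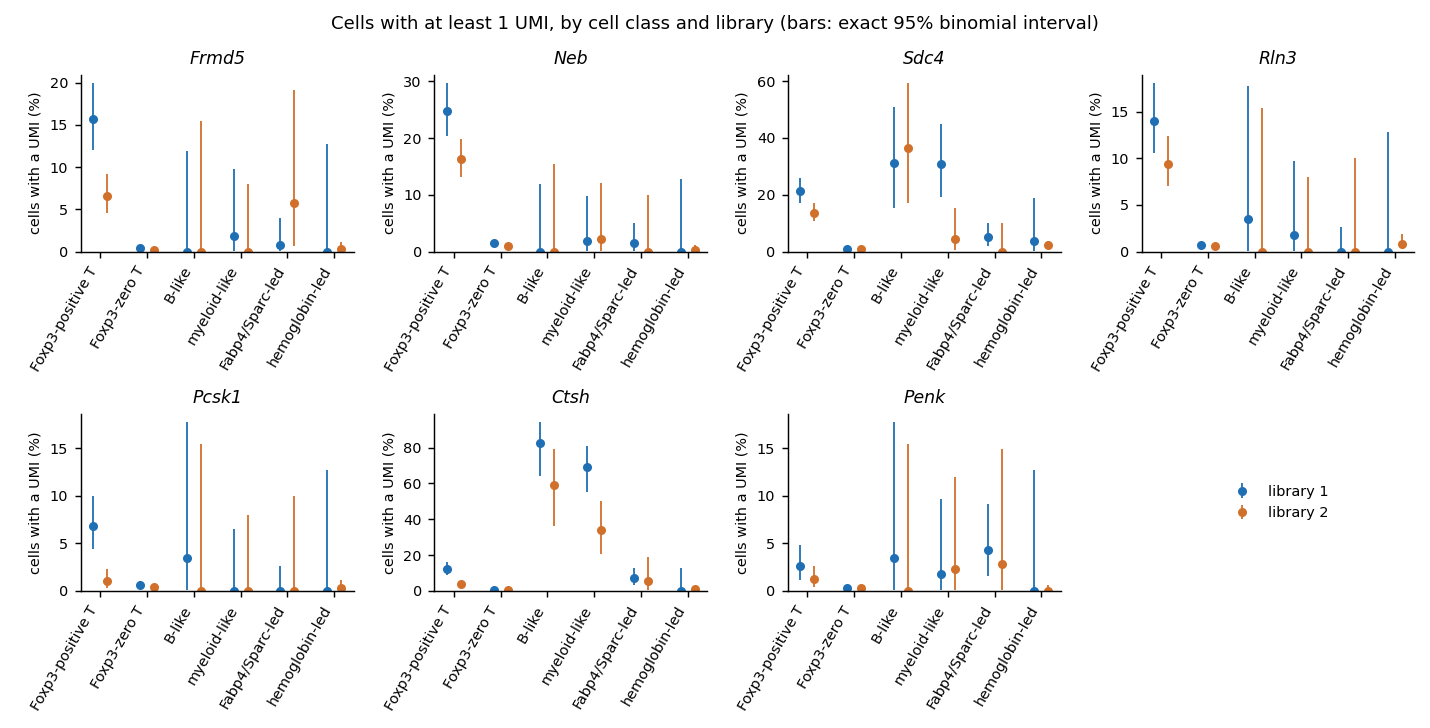
Share of cells with at least 1 UMI (vertical axis, percent) of each gene in 6 cell classes (horizontal axis) of library 1 (blue) and library 2 (orange). Points are shares and bars are exact (Clopper-Pearson) 95% binomial intervals, which cover counting error only. Frmd5, Neb and Rln3 are highest by point estimate in Foxp3-positive T cells of library 1, while Ctsh reaches 82.8% in B-like cells.

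Markers of other cell types were counted in the same Foxp3-positive cells. Of 7 skeletal muscle markers 3 were detected, with Acta1, Ckm, Myh4 and Myh1 at 0 in both libraries, beside 226 and 141 Neb UMIs. The muscle list summed to 33.5 and 29.0 CPM, above the 13.2 and 13.2 of Foxp3-zero cells as Neb was, and its part in the Neb values was not tested. Of 5 neuroendocrine markers 1 was detected, with Chga, Chgb, Scg2 and Snap25 at 0, beside the UMIs of Penk and Pcsk1. The summed level of B cell markers was 32.0 and 33.8 CPM, against 6.72 and 6.07 in Foxp3-zero cells. The 6 myeloid markers summed to 21.2 and 10.7 CPM, against 24.8 and 35.8 in Foxp3-zero cells. The part of B cell transcripts in the Ctsh and Sdc4 values was not tested. In library 1, 18.6% of Ctsh-positive and 18.9% of Sdc4-positive cells carried hashtags of more than 1 sample, against 9.45% and 8.33% of Foxp3-positive cells without the gene, and in library 2 the shares were 11.1% and 8.82% against 12.9% and 13.5%.

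Transcripts of the 7 genes were spread over cells to different degrees. Frmd5 had 141 UMIs in 55 Foxp3-positive cells of library 1 and 67 in 33 of library 2, and Rln3 had 87 in 49 and 72 in 47. In both genes the top cell held at most 10.3% of the UMIs. Pcsk1 had 54 UMIs in 24 cells of library 1 and 15 in 5 cells of library 2. Penk had 114 UMIs in only 9 cells of library 1, with a median of 13 UMIs in a positive cell and 34 in the top cell, and 17 UMIs in 6 cells of library 2. Among Foxp3-zero cells of library 2 Penk had 83 UMIs in 19 cells, and 1 cell held 41 of them. Penk was thus rare and, in library 1, abundant in most cells that had it, whereas the other 6 genes had medians of 1 to 4 UMIs in a positive cell of either library. Every Penk value below rests on these few cells.

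Foxp3 goes undetected in many cells that carry it, so the Foxp3-zero class was sorted by 4 other Treg genes, Il2ra, Ctla4, Ikzf2 and Tnfrsf4. Cells with 3 or 4 of them were 2.92% and 1.80% of the Foxp3-zero cells of libraries 1 and 2. They held 65.3% and 36.0% of the Foxp3-zero UMIs of Sdc4, 55.0% and 33.3% of those of Rln3, 47.8% and 17.9% of those of Neb and 73.9% and 14.3% of those of Frmd5. The share of cells with an Sdc4 UMI was 0.0784% and 0.381% with none of the 4 genes and 26.1% and 21.7% with all 4. Rln3 went from 0.157% and 0.232% to 21.7% and 17.4%, and Neb from 0.980% and 0.746% to 39.1% and 21.7%. Pcsk1 was less tied to them in library 2, where cells with none or 1 of the 4 genes, 93.7% of the class, held 88.2% of its UMIs. In library 1 such cells were 92.2% and held 56.8%. For Ctsh they held 75.0% and 70.6%, and cells with 3 or 4 of the genes held 16.7% and 17.6%. Cells with 3 or 4 held 22.2% and 56.6% of the Foxp3-zero Penk UMIs, the latter mostly from 1 cell. Depth moved along with these shares. Median UMIs were 6007 and 4426.5 at none and 6537 and 4535 at all 4, mean UMIs were 6456 and 4494 at none and 9080 and 8217 at all 4, and the part of depth in the shares was not tested. The last step rests on 23 cells in each library.

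**Figure D2:**
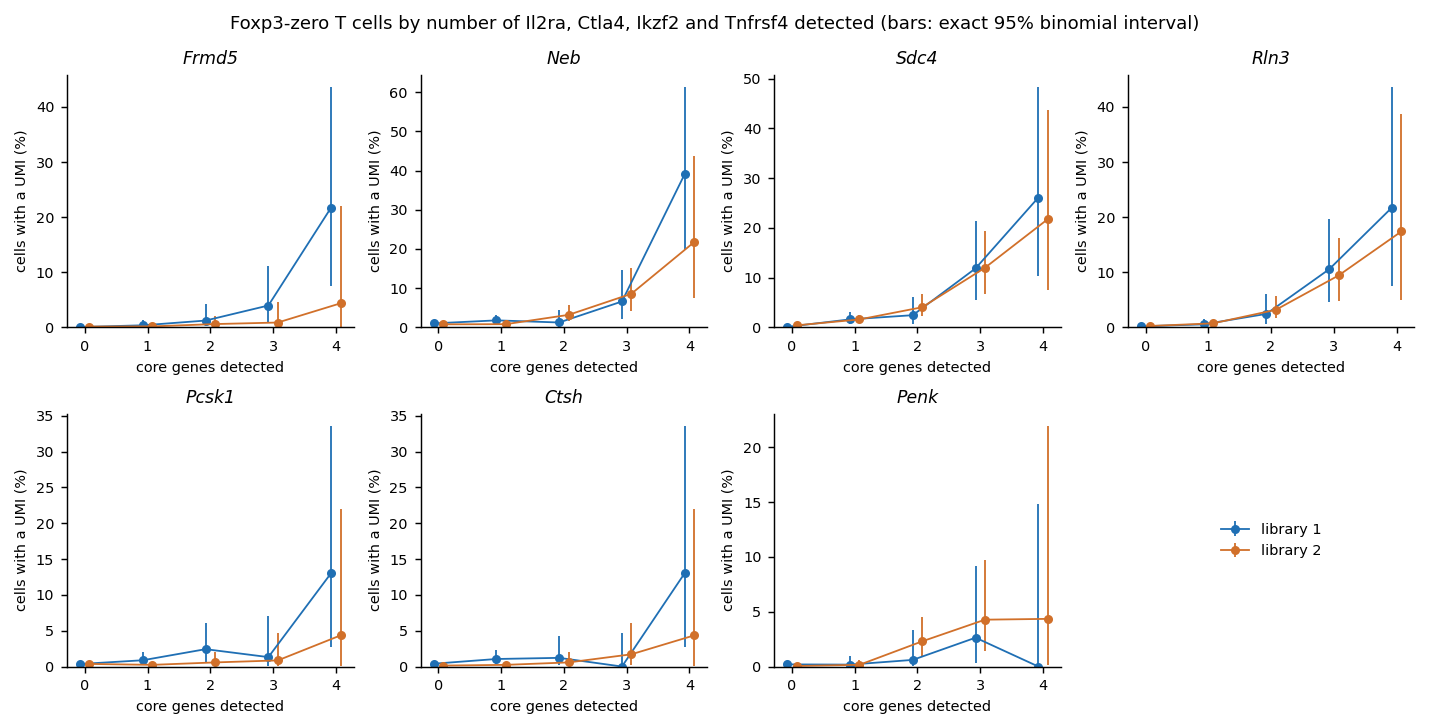
Share of Foxp3-zero T cells with at least 1 UMI of each gene (vertical axis, percent) by how many of Il2ra, Ctla4, Ikzf2 and Tnfrsf4 the cell had (horizontal axis, 0 to 4), with exact 95% binomial intervals. Sdc4 and Rln3 climb at each step in both libraries, and 23 cells of each library had all 4 genes.

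The genes were often found in the same Foxp3-positive cells. At least 1 of the 7 was detected in 49.4% (exact 95% interval 44.1 to 54.8) and 33.9% (29.8 to 38.3) of Foxp3-positive cells, against 3.96% and 3.26% of Foxp3-zero cells, and at least 2 were detected in 24.0% and 11.8%. Of Ctsh-positive cells of library 1, 55.8% also had Frmd5, against 10.1% of Ctsh-negative cells, and in library 2 the shares were 27.8% and 5.83%. Of Pcsk1-positive cells 70.8% and 40.0% had Neb, against 21.5% and 16.0%. For all 21 pairs of genes in library 1, and for 20 of 21 in library 2, a gene was found in a larger share of the cells with the other gene than of the cells without it. The exception was Ctsh with Penk, which no cell of library 2 held together. Cells with a UMI of any of the 7 had medians of 6546 and 4614 UMIs against 6120 and 4334 without, and they had more Foxp3 UMIs, at means of 3.25 and 2.29 against 2.22 and 1.64. These shares carry no test, because cells of a library are not replicates and deeper cells show more genes.

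**Figure D3:**
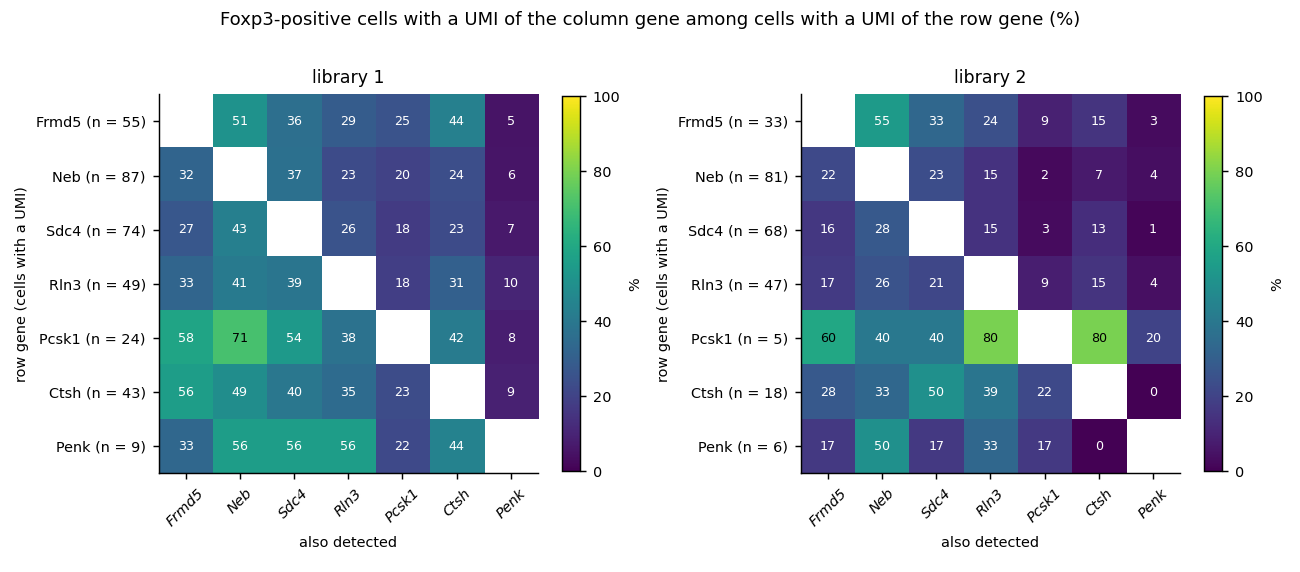
Percent of Foxp3-positive cells with a UMI of the row gene that also had a UMI of the column gene, in library 1 (left) and library 2 (right), with the number of row-gene-positive cells beside each name. The Pcsk1 row of library 1 reaches 70.8% with Neb, and the same row of library 2 rests on 5 cells.

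Dependence on Il1rl1 was read by splitting Foxp3-positive cells into those with and without an Il1rl1 UMI, 93 and 62 cells against 257 and 436. The former were deeper, with medians of 7239 and 4908 UMIs against 5888 and 4417.5. Penk stood at 112 and 10.1 CPM in Il1rl1-positive cells of libraries 1 and 2 against 8.40 and 5.59 in Il1rl1-zero cells. Rln3 stood at 59.5 and 73.1 CPM against 18.4 and 18.5, and Pcsk1 at 55.0 and 37.8 against 3.15 and 0. The 0 for Pcsk1 stands for no UMI in 436 cells, which allows up to 1.29 CPM, and all 5 Pcsk1-positive cells of library 2 had Il1rl1. Ctsh stood at 93.9 and 25.2 CPM against 14.2 and 4.73, and Sdc4 at 79.0 and 58.0 against 34.1 and 35.3. Frmd5 stood at 114 and 85.7 CPM against 21.5 and 14.2, and Neb at 182 and 95.8 against 35.2 and 44.3. All 7 genes were higher with Il1rl1 in both libraries. This is a description, since the share of all genes that did so is not given and the link of Pcsk1 was known from these data.

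In edgeR's quasi-likelihood test over 8769 genes, with library as a term and Benjamini-Hochberg adjustment, 5.42% of all genes were higher with Il1rl1 at an adjusted p under 0.05. The 6 members that were tested were among them, a description only, since Ctsh and Penk reached the limit for low counts, 7.20 CPM, in just 1 of the 2 Il1rl1-zero sums. With no filter both were still called (8.76e-16 and 2.49e-20). Frmd5 was higher by 2.42 ± 0.23 on the log2 scale (± SE, adjusted p = 6.98e-14), Neb by 1.79 ± 0.19 (2.96e-12), Rln3 by 1.77 ± 0.25 (6.57e-08) and Ctsh by 2.59 ± 0.29 (1.72e-11). Sdc4 changed least, by 0.96 ± 0.23 (0.00172), and missed the threshold under 6 of 12 other settings, at adjusted p of up to 0.879. Rln3 missed it under 1 of 12. Penk was higher by 3.04 ± 0.32 (2.44e-12), but on the log2(CPM + 1) scale library 1 alone gave 3.59 and library 2 alone 0.75, and DESeq2 gave an adjusted p of 0.888. For Pcsk1 the fitted difference was 4.83 ± 0.51, given with no p because its link to Il1rl1 was known from these data. The fit had 2 libraries and 1 residual degree of freedom, so its spread is pooled over genes and holds little of one gene's own difference between libraries. The B cell markers summed to 40.1 and 50.4 CPM with Il1rl1 and 28.4 and 31.0 without, beside the Ctsh and Sdc4 values, and their part in these was not tested.

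The difference with Il1rl1 was also seen inside VAT and SAT. BAT was not split in this way. Within VAT Frmd5 stood at 151 CPM with Il1rl1 against 48.6 without in experiment 1 and at 106 against 28.2 in experiment 2, and within SAT at 132 against 43.2 and 202 against 31.7. Rln3 stood within VAT at 48.6 against 27.3 and 89.2 against 22.5, and within SAT at 82.3 against 20.3 and 84.2 against 33.8. Pcsk1 stood within VAT at 60 against 6.07 and 61.3 against 0, and within SAT at 65.8 against 2.54 and 67.3 against 0. For Frmd5, Rln3 and Pcsk1, then, each of the 4 comparisons inside a depot pointed the same way, as it did for Neb and Sdc4. Ctsh was the exception in SAT of experiment 2, with 0 UMIs in the 13 Il1rl1-positive cells against 10.6 CPM without, and Penk in VAT of experiment 2, with 0 in 27 cells against 25.3. In spleen only 7 and 3 Foxp3-positive cells had Il1rl1, so values there are weak. In experiment 1 Neb was lower with Il1rl1 (0 against 31.2 CPM), as was Rln3 (24.3 against 27.0). Frmd5, Pcsk1, Sdc4, Ctsh and Penk were higher there. The 3 cells of experiment 2 are too few for a value.

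Dependence on Cxcr3 was weaker and pointed the other way for some of the genes. The 120 and 162 Cxcr3-positive cells were deeper than the 230 and 336 without, at medians of 7565 and 5280 UMIs against 5888.5 and 4218. Pcsk1 stood at 7.88 and 0 CPM with Cxcr3 (no UMI in 162 cells, which allows up to 2.56) against 27.5 and 9.68 without. Frmd5 stood at 35.0 and 17.9 CPM against 61.7 and 29.7, and Neb at 58.7 and 45.2 against 97.2 and 56.8. These 3 were lower with Cxcr3 in both libraries, and they passed edgeR's quasi-likelihood test with Benjamini-Hochberg adjustment over 8594 genes, in which 1.55% of all genes were lower. Pcsk1 fell by 2.30 ± 0.48 on the log2 scale (± SE, adjusted p = 0.000146), Frmd5 fell by 0.81 ± 0.24 (0.0254) and Neb fell by 0.57 ± 0.18 (0.0295). The calls for Frmd5 and Neb were fragile: Frmd5 missed the threshold in 3 of 10 and Neb in 10 of 11 other settings, and with Il1rl1 in the same fit none of the 3 passed, at adjusted p of up to 0.614.

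The other 4 genes did not pass for Cxcr3 or were not tested. Sdc4 stood at 56.9 and 30.7 CPM with Cxcr3 against 42.2 and 44.5 without, a difference of -0.02 ± 0.21 (adjusted p = 0.979) whose sign differed between the libraries. Rln3 stood at 30.7 and 23.0 against 31.8 and 29.0 (-0.20 ± 0.26, adjusted p = 0.803), and Ctsh at 31.5 and 4.27 against 44.6 and 10.3 (-0.68 ± 0.30, adjusted p = 0.215). Penk stood at 20.1 and 1.71 CPM against 55.6 and 9.68, described with no test because this difference was known from these data. A p above the threshold does not show that these levels were equal.

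Splitting the cells by both receptor genes placed the highest level of every gene in the cells with Il1rl1 and without Cxcr3, in both libraries. There, in 63 and 43 cells, Frmd5 stood at 168 and 121 CPM, Neb at 222 and 112, Sdc4 at 87.0 and 84.9, Rln3 at 69.6 and 103 and Ctsh at 102 and 44.7. Pcsk1 stood at 77.3 and 67.0 CPM and Penk at 147 and 17.9. With both Il1rl1 and Cxcr3, in 30 and 19 cells, Frmd5 stood at 36.5 and 40.5, Rln3 at 44.9 and 34.7 and Pcsk1 at 22.5 and 0. The last value allows up to 17.4 CPM, since 19 cells hold few UMIs. Without Il1rl1 the order turned for some genes in library 1, where Frmd5 stood at 34.4 CPM with Cxcr3 against 12.5 without, Sdc4 at 52.2 against 21.4 and Rln3 at 24.2 against 14.3. In library 2 the same values were 14.0 against 14.3, 32.0 against 37.7 and 21 against 16.6, so that the turn was seen in both libraries for Rln3 alone. The small classes and the single value per library allow no test of these 4 groups beyond the joint fit above.

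**Figure D4:**
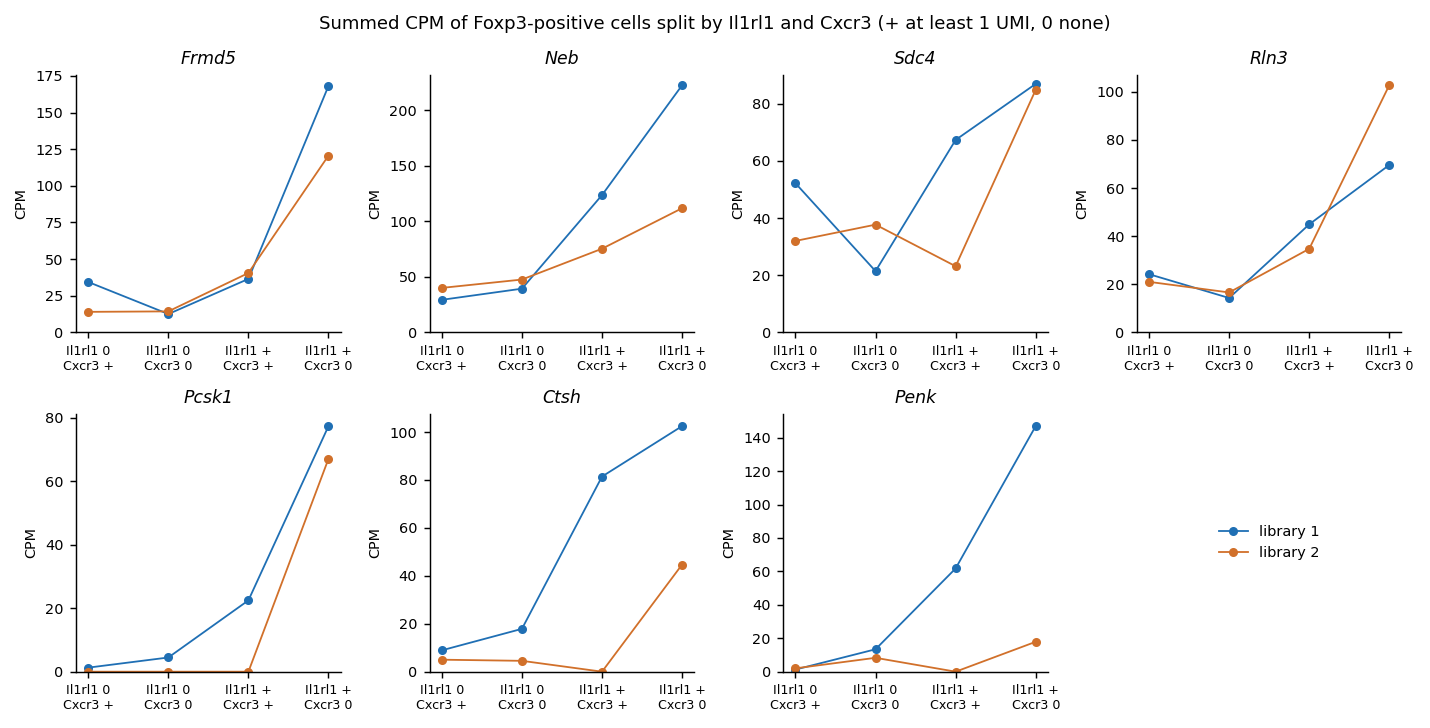
Level of each gene (vertical axis, CPM of the summed cells) in Foxp3-positive cells with (+) or without (0) a UMI of Il1rl1 and of Cxcr3, 1 point per library, joined by lines within a library. In each panel both libraries are highest in the class with Il1rl1 and without Cxcr3, at 168 and 121 CPM for Frmd5.

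The same splits were made among Foxp3-zero cells. In the 79 and 106 Il1rl1-positive Foxp3-zero cells Rln3 stood at 18.1 and 5.76 CPM against 1.19 and 1.5 in the 3306 and 7689 without Il1rl1, and Pcsk1 at 26.5 and 5.76 against 0.795 and 0.840. Neb stood at 60 and 31.7 against 2.08 and 2.52, Sdc4 at 27.9 and 30.3 against 1.28 and 2.52, Frmd5 at 22.3 and 5.76 against 0.309 and 0.280 and Ctsh at 6.98 and 4.32 against 0.839 and 0.392. These 6 genes were higher with Il1rl1 in both libraries and in edgeR's quasi-likelihood test with Benjamini-Hochberg adjustment, in which 5.32% of 12825 genes were higher. The log2 differences were 5.23 ± 0.64 for Frmd5 (± SE, adjusted p = 2.99e-14), 4.07 ± 0.39 for Neb (7.62e-23), 3.99 ± 0.56 for Pcsk1 (8.47e-11) and 3.75 ± 0.45 for Sdc4 (7.1e-15). For Ctsh and Rln3 they were 3.0 ± 0.81 (0.00314) and 2.92 ± 0.59 (1.96e-05). Ctsh missed the threshold under DESeq2 (0.0875) and with no filter (0.104), and Rln3 after thinning (0.330). Without Il1rl1, Frmd5, Pcsk1 and Ctsh lay under the limit for low counts, 0.856 CPM, in both libraries. They passed the filter only through the Il1rl1-positive sums, where they are high, so the number of genes called is a description. With no filter Frmd5 (4.62e-07) and Pcsk1 (4.61e-07) were still called. Penk had no UMI in Il1rl1-positive Foxp3-zero cells of either library, which allows up to 4.19 and 4.32 CPM, and did not pass the filter on low counts. Cells with Il1rl1 were deeper here too, at medians of 7068 and 5613 UMIs against 6078 and 4446. Some Foxp3-zero cells may be Treg cells whose Foxp3 went undetected. Over both libraries, 351 lay in the cluster led by Foxp3, Ikzf2 and Ctla4. They held 24 Frmd5 UMIs, beside 23 and 14 in the whole class of libraries 1 and 2. They held 98 of Sdc4 (49 and 111), 49 of Rln3 (40 and 57) and 68 of Neb (90 and 112). For Pcsk1 they held 8 (37 and 34) and for Ctsh 11 (24 and 17). Their part in these differences was not tested.

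Whether the Il1rl1 difference was of another size in Foxp3-positive than in Foxp3-zero cells was tested by an interaction term over 9273 genes, of which 0.625% passed in either direction. The log2 difference was smaller in Foxp3-positive cells for Frmd5, by -2.88 ± 0.62 (± SE, edgeR's quasi-likelihood test, adjusted p = 0.0245), for Neb, by -2.32 ± 0.41 (0.00414), and for Sdc4, by -2.72 ± 0.46 (0.00261). Rln3 (-1.24 ± 0.59, adjusted p = 0.608), Ctsh (-0.37 ± 0.71, 0.959) and Pcsk1 (0.92 ± 1.01, 0.893) did not pass, nor did Penk (adjusted p = 0.284), whose counts in Il1rl1-positive Foxp3-zero cells were all 0. After thinning none of the 3 passed, at adjusted p of 0.955, 0.449 and 0.192, and Frmd5 also missed with at least 2 Foxp3 UMIs (0.0649) and with T cells by markers (0.0517). On the log2(CPM + 1) scale the Frmd5 difference was -1.80 in library 1 and 0.11 in library 2, so it was not seen in both. For Frmd5, Neb and Sdc4 the level in Il1rl1-positive cells was nonetheless higher in Foxp3-positive than in Foxp3-zero cells, as the values above show. The part of Treg cells with undetected Foxp3 in the Foxp3-zero side was not tested.

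For Cxcr3 among Foxp3-zero cells, 4 of the 6 genes that passed the filter were lower with it, where 24.4% of all 12890 genes were lower. Pcsk1 stood at 0.445 and 0.176 CPM with Cxcr3 against 2.30 and 1.28 without (-2.69 ± 0.52, ± SE, edgeR's quasi-likelihood test, adjusted p = 1.15e-06), and Penk at 0.557 and 0.527 against 0.904 and 3.08 (-2.10 ± 0.43, 5.96e-06). Sdc4 stood at 1.00 and 1.49 against 2.78 and 3.76 (-1.54 ± 0.31, 3.45e-06) and Neb at 2.23 and 1.49 against 4.87 and 3.80 (-1.40 ± 0.27, 8.78e-07). With so many of the measured genes lower, these 4 calls are not particular to the list. Pcsk1 and Penk passed the filter only through the sums without Cxcr3. In library 2, 1 cell held 41 of the 83 Foxp3-zero Penk UMIs, so the Penk call rests on few cells. Among other settings in which they were tested, Penk missed the threshold in 1 of 8 and Sdc4 in 1 of 10. Rln3 (0.27 ± 0.34, adjusted p = 0.536) and Ctsh (-0.41 ± 0.52, 0.545) did not pass, and Frmd5 was filtered out. None of the 7 passed the test of a different Cxcr3 effect in the 2 Foxp3 classes, which 4.42% of 11919 genes passed. Sdc4 came closest (1.54 ± 0.44, adjusted p = 0.0511) and passed in 5 of 10 other settings. DESeq2 called 0 of the 7, and an unadjusted p under 0.05 was reached by 2 of them, Sdc4 (0.00228) and Neb (0.0162).

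Tissue was compared in Foxp3-positive cells by hashed sample. Samples of under 20 such cells were left out of the fit, so BAT entered with replicates 1 and 4 only, of 29 and 25 cells. Pcsk1 did not pass the filter on low counts. Fewer cells of a kind and fewer transcripts in each cell cannot be told apart in such sums. The Il1rl1-positive share of Foxp3-positive cells, which moved with several of the genes above, was 22.1 to 52.3% in VAT, 12.8 to 45.2% in SAT, 6.25 to 13.8% in BAT and 0 to 10.0% in spleen. Its part in the tissue values was not tested.

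Frmd5 was a gene of the Foxp3-positive cells of VAT and SAT. In replicates 1 to 4 it stood at 90.6, 117, 57.1 and 48.0 CPM in VAT and at 88.9, 61.5, 20.8 and 75.3 in SAT. It stood at 0, 9.0, 3.63 and 0 CPM in spleen and at 12.8, 0, 0 and 9.96 in BAT. By these values every VAT and SAT sample was above every spleen and BAT sample, and in spleen 2 of 189 and in BAT 2 of 85 cells had a UMI. The 0 values of BAT replicates 2 and 3 come from 16 and 15 cells, too few to show a low level. Against spleen the log2 difference was 4.21 ± 0.51 in VAT (± SE, edgeR's quasi-likelihood test with Benjamini-Hochberg adjustment over 5252 genes, adjusted p = 6.43e-07) and 3.90 ± 0.53 in SAT (7.1e-06). BAT lay below VAT (-2.68 ± 0.68, adjusted p = 0.0272), a call that was lost without either BAT sample, at adjusted p of 0.534 and 0.131, and without VAT replicate 2, at 0.0704.

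Neb and Ctsh also differed between fat and spleen. Neb stood at 196, 220.0, 59.8 and 84.0 CPM in VAT, 61.1, 86.9, 74.8 and 140.3 in SAT, 8.69, 39.0, 39.9 and 28.9 in spleen and 19.2, 11, 16.5 and 49.8 in BAT. No spleen sample reached the lowest VAT or SAT sample. The log2 difference from spleen was 2.13 ± 0.39 in VAT (edgeR's quasi-likelihood test, adjusted p = 0.000311) and 1.51 ± 0.42 in SAT (0.0179), the latter lost without SAT replicate 4 (0.0954) or spleen replicate 1 (0.0576). Ctsh stood at 113, 67.4, 21.7 and 24.0 CPM in VAT, 19.4, 61.5, 0 and 17.1 in SAT, 4.35, 3.0, 7.25 and 0 in spleen and 25.6, 0, 0 and 0 in BAT. VAT lay above spleen in every sample (3.76 ± 0.64, adjusted p = 0.000126), whereas SAT overlapped it (2.50 ± 0.75, 0.0295). The SAT call was lost without SAT replicate 2 (0.222), without VAT replicate 1 (0.0549) and without spleen replicates 1 (0.0767), 2 (0.201) or 4 (0.0585). It was also lost without the 1 cell that held most Penk (0.118). B cell markers in these sums ranged from 30.2 to 78.0 CPM in VAT, 10.3 to 54.3 in SAT, 12.4 to 48.0 in spleen and 0 to 119 in BAT.

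Sdc4, Rln3 and Penk were not told apart between tissues by the test, and Pcsk1 was not tested. Sdc4 stood at 47.8, 92.3, 48.9 and 72.0 CPM in VAT, 66.7, 54.3, 62.4 and 78.7 in SAT, 4.35, 33, 54.4 and 33.1 in spleen and 19.2, 77.3, 16.5 and 49.8 in BAT. The log2 difference from spleen was 0.93 ± 0.35 in VAT (edgeR's quasi-likelihood test, adjusted p = 0.0919) and 0.97 ± 0.35 in SAT (0.0783). Both passed without spleen replicate 3 (0.0371 and 0.0346), and VAT also passed without VAT replicate 3 (0.0374). Rln3 stood at 10.1 to 78.1 CPM in VAT, 24.9 to 57.9 in SAT, 4.35 to 50.8 in spleen and 11 to 39.8 in BAT, overlapping throughout (0.42 ± 0.48 in both fat depots against spleen, adjusted p = 0.66 and 0.674). Pcsk1 had 34 UMIs in 203 VAT cells, 21 in 177 SAT cells, 3 in 189 spleen cells and 2 in 85 BAT cells. Penk was 0 in all 4 BAT samples and ranged from 0 to 123 CPM in SAT, 0 to 65.4 in VAT and 0 to 90.0 in spleen, with the top values from 1 cell in SAT and 2 cells each in VAT and spleen.

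In the counts over the list, 3 of 6 tested genes were higher in SAT than in spleen, against 6.04% of all genes, and 3 of 6 in VAT than in spleen, against 6.59%. No spleen sample reached the limit for low counts, 36.2 CPM, for Frmd5 or Ctsh, which passed the filter through other tissues, so these counts are a description. SAT and VAT differed in 0 of 6, against 0.438% of all genes, and at an unadjusted p under 0.05 only Ctsh stood lower in SAT (-1.26 ± 0.44, adjusted p = 0.313). DESeq2 called 0 there. BAT and SAT differed in 0 of 6 by both tools (2.06% of all genes by edgeR), with Frmd5 (0.00237) and Neb (0.0432) at an unadjusted p under 0.05. BAT was lower than VAT in 1 of 6 (1.41%) and BAT and spleen differed in 0 of 6 by both tools (0.362% by edgeR), with 0 at an unadjusted p under 0.05. The comparisons with spleen share the spleen samples. In Foxp3-zero cells Neb and Sdc4 alone passed the filter. Neb was higher in VAT (7.15, 5.14, 6.39 and 7.02 CPM) than in spleen (2.36, 4.25, 2.57 and 1.98), with no overlap, by 1.18 ± 0.36 (adjusted p = 0.0122) where 20.3% of all genes were higher, and the call was lost without spleen replicate 4 (0.0529). Neither gene passed between SAT and spleen, where 41.1% of genes did, or between BAT and spleen, where 8.61% did, by edgeR or by DESeq2. At an unadjusted p under 0.05 there were 0 of the 2 in the former and 2, both lower in BAT, in the latter.

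**Figure D5:**
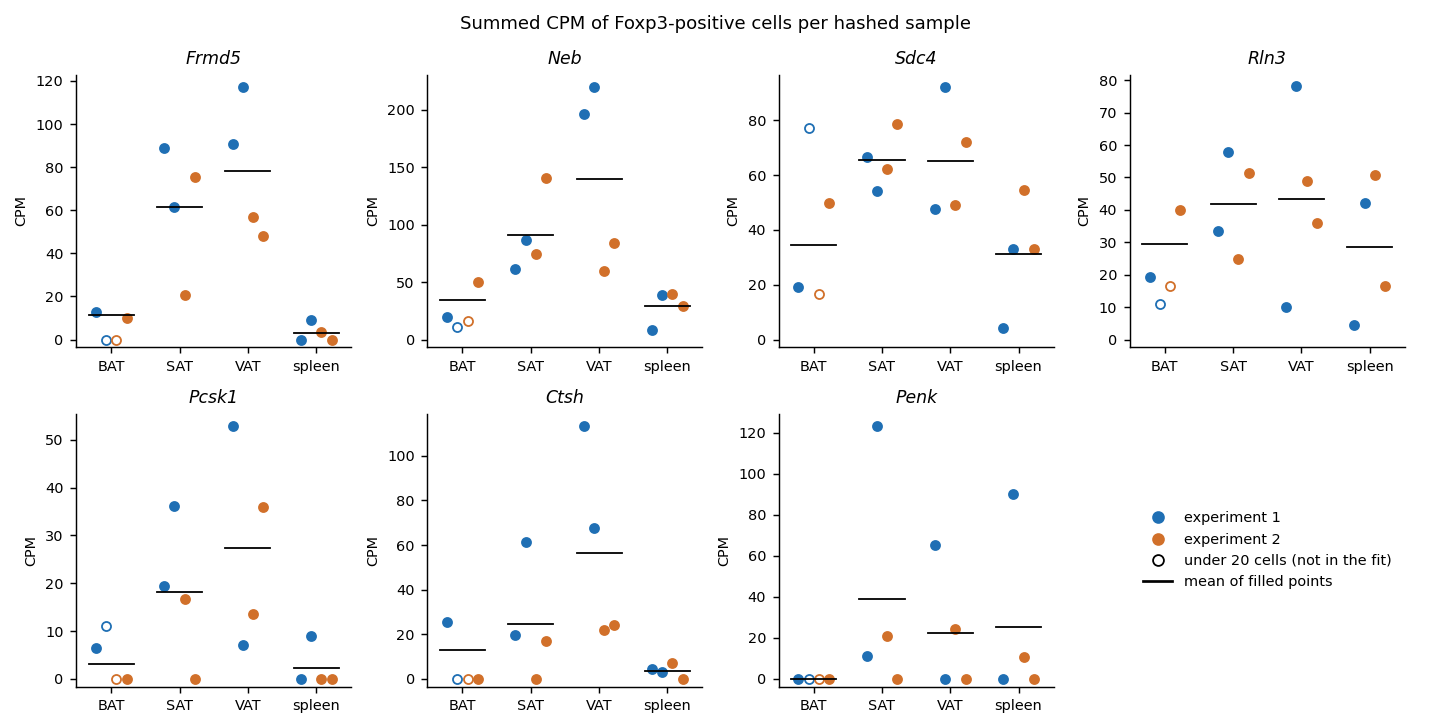
Level of each gene in Foxp3-positive cells (vertical axis, CPM of the summed cells) in each hashed sample by tissue (horizontal axis), for experiment 1 (blue) and experiment 2 (orange). Open circles are samples of under 20 cells, which stayed out of the fit, and lines are means of the filled points. Frmd5 lies between 20.8 and 117 CPM in all SAT and VAT samples and at or under 12.8 in all BAT and spleen samples. The open circles of BAT rest on 16 and 15 cells, too few to show a low level.

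Other genes of the same pathways were read in the same Il1rl1 comparison of Foxp3-positive cells, in which 5.42% of all genes were higher. Of 13 further prohormone processing genes 4 were measured and 1 was higher, Furin (1.06 ± 0.24, ± SE, edgeR's quasi-likelihood test, adjusted p = 0.000831), a convertase of the secretory pathway. Of 15 opioid and relaxin peptides and receptors 1 was measured and 0 changed. Among 11 measured lysosomal cathepsins and cystatins Ctsz and Cst3 were higher and Ctss was lower, 0 of 5 syndecan partners changed, and Frmd4b was higher among 9 FERM proteins and Nebl, a nebulin relative, among 8 thin filament genes. Median log2 differences were 0.64, -0.11, 0.11, 0.26, -0.03 and 0.17 for these lists in turn, against -0.01 over all genes tested. With Cxcr3, Ctsw and Cstb were higher and Ctss lower among the cathepsins and cystatins, Capzb was higher and Ttn lower among 7 thin filament genes, and 0 of the other 4 lists' measured genes changed. Between fat and spleen, Ctsz was higher and Ctss lower in both SAT and VAT, Ctsw was higher in SAT and Furin in VAT. These lists were drawn up with earlier results of these data known.

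The genes closest to each member were found by Pearson correlation of log2(CPM + 5) over 14 sums of T cells split by library, Foxp3, Il1rl1 and Cxcr3, among 9326 genes. The sums share libraries, differ in depth and are split by Foxp3, on which the genes were selected, so that high values among the 7 restate that choice and all are a description. Frmd5 was nearest to Rln3 (r = 0.974), Nfkbia (0.964) and Atp6v0a1 (0.961), and Rln3 to Frmd5, Ctsz (0.966) and Arl5a (0.959). Neb was nearest to Sdc4 (0.954), Rarg (0.941) and Frmd5 (0.935), and Sdc4 to Neb, Rarg (0.952) and Capg (0.95). Pcsk1 was nearest to Ccr1 (0.941), Tox2 (0.917) and Itgb3bp (0.902). Ctsh was nearest to Cxcl2 (0.965), Wls (0.924) and Rara (0.922), and Penk to Cxcl2 (0.905), Ctsh (0.901) and Vcpip1 (0.897). Of these genes Cxcl2, which encodes a chemokine, was itself higher with Il1rl1 by 2.88 ± 0.14 and lower with Cxcr3 by 1.74 (-1.74 ± 0.16), and Ccr1 and Tox2 were higher with Il1rl1 by 4.15 ± 0.50 and 3.24 ± 0.37.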

How the data were processed

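The members and lists were chosen with earlier results of these data known. The authors deposited raw UMI counts per gene and cell for 2 libraries, made with Cell Ranger 6.1.0 per the file headers. The build mm10 is named per the submitters' processing notes. Hashtags with no label took 0.0856% and 0.0964% of hashtag counts.

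Barcodes needed 500 genes, 1000 UMIs and a mitochondrial share under 10%, which kept 3985 and 9004 cells. Hashtag calls, made by a mixture model at a posterior of 0.95, gave 3486 and 6124 single-sample cells and marked 6.88% and 12.4% as multiplets, which left the sums per sample but not the class sums. No other doublet caller was run. Cells were clustered with scanpy 1.11.5 (30 components, resolution 1), and T cell clusters were named from markers.

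Raw counts were summed and tested with edgeR 4.0.16 (R 4.3.3) by the quasi-likelihood test, with TMM scaling, a minimum count of 10, Benjamini-Hochberg adjustment and a threshold of 0.05. Class sums had library as a term. Tissue sums of at least 20 cells had experiment as a term and shared 1 fit over 4 tissues. Exact 95% intervals and floors of 3 counts cover counting error only. The fits were tested on simulated data. Alternatives were DESeq2 1.42.0, RLE size factors, no filter, other cell and hashtag filters, thinning, blocks and samples left out. The text names the 7 members, the 3 genes most like each, and the listed genes that passed. The use of strand in counting is not given in the sources used here.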

Additional observations from a re-analysis of the deposited data

Results flagged for a closer look

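Of 49 groups of hashed samples checked, 10 had 1 sample far from the rest. The rule's rate of about 1 in 20 is for normally distributed values and does not hold for such sparse counts. A group with UMIs in only 1 sample meets the rule by construction, so the number is a description. In Foxp3-positive cells Penk stood at 123 CPM in SAT replicate 2, against 0 to 20.8 in the other SAT samples, all from 1 cell of 34 UMIs. Penk stood at 90.0 CPM in spleen replicate 2, against 0 to 10.9, and at 39.0 without its top cell. Pcsk1 stood at 9.0 CPM in spleen replicate 2 and at 0 in the others, from 3 UMIs of 1 cell.

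In Foxp3-zero cells Penk stood apart in 4 tissues. It had 11.3 CPM in VAT replicate 3 against 0.340 to 0.935 and 1.23 without its top cell, and 8.11 in BAT replicate 3 against 0 to 0.502 and 0.338 without its top cell. It had 2.12 CPM in SAT replicate 2 against 0.262 to 0.361, and 0.772 in spleen replicate 3 against 0. Pcsk1 had 4.09 CPM in VAT replicate 1 against 0 to 0.491. Rln3 had 1.01 CPM in BAT replicate 3 and Ctsh 0.772 in spleen replicate 2, with the other samples of those tissues at 0.

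The Il1rl1 difference was of another size in the 2 Foxp3 classes for 3 genes by an interaction term in edgeR, with log2 values (Foxp3-positive minus Foxp3-zero) of -2.88 for Frmd5, -2.32 for Neb and -2.72 for Sdc4. Frmd5 lost its call in 3 of 10 alternatives (adjusted p up to 0.955), and Neb and Sdc4 in 1 each, after thinning (0.449 and 0.192).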

How the results depend on the processing

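In the alternative fits over all genes, no called direction of the 7 genes reversed. Values within a tissue or within a library had no test. Some of these differed in sign from the fit, as for Ctsh in SAT and Penk in VAT of experiment 2 with Il1rl1. Counts of the 7 genes called moved as follows. For Il1rl1 in Foxp3-positive cells the count was 6, and 3 after thinning. For Cxcr3 in Foxp3-positive cells it was 3, and 0 with hashed samples as a block, with Il1rl1 in the fit or after thinning, and 1 without multiplets or with at least 2 Foxp3 UMIs; DESeq2 gave no adjusted p for these genes. Among Foxp3-zero cells the Il1rl1 count was 6, and 2 after thinning, and the Cxcr3 count was 4, with 2 under DESeq2 and 1 after thinning. The Il1rl1 interaction count was 3, and 0 after thinning. The Cxcr3 interaction count was 0, and 1 under RLE factors, no filter, at least 2 Foxp3 UMIs and, chosen after seeing the data, without the cell with most Penk or without shared barcodes. SAT against spleen gave 3, 0 after thinning and 1 to 4 with 1 sample left out. VAT against spleen gave 3, 1 after thinning and 3 to 4 with 1 left out. BAT against SAT gave 0, 2 with no filter, 1 with at least 10 cells and 0 to 1 with 1 left out. BAT against VAT gave 1, 3 with no filter, 2 with at least 10 cells, 0 to 2 with 1 left out, and 0 under DESeq2, stricter hashtags, thinning, T cells by markers or without SAT replicate 1 and BAT replicate 4. In Foxp3-zero cells BAT against spleen gave 0, and 3 with no filter, and VAT against spleen gave 1, 4 with no filter, 0 after thinning and 0 to 1 with 1 left out. The cause of these moves was not tested.

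Over all genes, Il1rl1 in Foxp3-positive cells gave 792 calls, 178 under DESeq2, 186 with the block, 329 jointly, 237 thinned and 166 with at least 2 Foxp3 UMIs. Cxcr3 there gave 384, and 26, 17, 19, 51 and 150 in the same order, and the share of calls that were higher was 65.4% by edgeR and 84.6% by DESeq2. In Foxp3-zero cells Il1rl1 gave 1418, 591 under DESeq2 (59.2% against 48.1% higher), 925 with the block and 366 thinned. Cxcr3 there gave 6435, 2829 under DESeq2, 3889 with the block and 3141 thinned. The Il1rl1 interaction gave 58, 95 with no filter and 20 thinned, and the Cxcr3 interaction 527 and 200 thinned. In Foxp3-positive cells SAT against VAT gave 23, 76 with no filter, 6 with stricter hashtags or without SAT replicate 1 and BAT replicate 4, 11 thinned and 9 to 54 with 1 sample left out. Thinning moved SAT against spleen from 549 to 178 and VAT against spleen from 632 to 225. BAT against SAT gave 108, 164 with no filter, 206 with at least 10 cells, 55 thinned, 47 with T cells by markers, 8 with stricter hashtags, 1 without BAT replicate 1, 17 without BAT replicate 4, 65 and 69 without SAT replicates 1 and 2, and 4 without SAT replicate 1 and BAT replicate 4. BAT against VAT gave 147, 278 with at least 10 cells, 71 thinned, 88 with T cells by markers, 59 with stricter hashtags, 17 without BAT replicate 1, 52 without BAT replicate 4 and 55 without both poorly separated samples. BAT against spleen gave 19, 42 with no filter, 39 with at least 10 cells, 12 without BAT replicate 1 and 11 thinned. Thinning moved the Foxp3-zero counts against spleen from 887 to 221 for BAT, 4228 to 1672 for SAT and 3875 to 1441 for VAT. Same-numbered samples did not deviate together (r from -0.0943 to 0.0875 over 12 tissue pairs). With so few samples of a tissue in each experiment, this does not show whether the numbers pair them. With a replicate block SAT against spleen still gave 3 and VAT against spleen 3 of the 7 genes. Pcsk1 and Penk rest on 5 and 6 Foxp3-positive cells in library 2, and levels under the limits given for 0 counts could not be seen at this depth.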
